A study of Mus musculus with 5 samples.

Results

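Cultured mouse embryonic fibroblasts labelled 2n 2i MEFs were compared with control MEFs, 1 microarray each, in a series of 5 arrays. MEFs are connective tissue cells grown from the embryo. The comparison used the 2 columns with those titles, as differences of log2(value + 1), for every gene measured by a probe set of 1 gene. These were 19938 genes, of which 8044 could be compared. The background strain of every sample, control MEFs included, was an F1 of 129X1/SvJ and MSM/Ms. The other arrays of the series held 4n 2i MEFs and the embryonic stem cells (ESCs) called 2i ESCs and S ESCs.

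ESC culture called 2i commonly blocks the kinases MEK and GSK3, which act in ERK and Wnt signalling. The labels do not spell out 2n, and they do not say from how many embryos or cultures the MEFs came, at which passage they were taken or how they were derived. The first number in the sample title was 15 for the 2n 2i MEFs, as for the 2i ESCs, and 4 for the control MEFs, so the pair differed in more than the group name. The series' title concerns female ESCs that keep the methylation inherited from the gametes, and its design text names the 5 groups without a question for this pair. With 1 array a group there was no replicate and no test, and every difference below is the size measured between those arrays.

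Imprinted genes are expressed from the copy of 1 parent, because methylation laid down in the egg or the sperm marks regions that control them. Most such regions are methylated in the egg. There the paternal copy of genes such as Mest and Peg10 is active, while Igf2r and Grb10 are transcribed mainly from the maternal copy. Loss or gain of the mark is known to move such genes in opposite directions. Fibroblasts of the embryo also keep positional programmes, read by Hox and other transcription factors, and signal through BMP, Wnt, FGF and insulin-like growth factors.

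Exactly equal values on both arrays were common. They stood in 45.4% of the 28853 probe sets. Among genes, the share fell from 78.5% in the dimmest decile of brightness to 15.8% in the brightest. Equal values were treated as uninformative and left out of the comparisons below, but not of the marker counts and sums. Of 10131 genes whose brighter array reached its floor, the median of that array's gene-named probe sets (225.9 for 2n and 217.9 for control), 2087 or 20.6% were equal, which left the 8044 genes compared. Some familiar genes are among those left out, such as Acta2, which encodes smooth muscle actin, Lox, which crosslinks collagen, and the actin gene Actb.

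**Figure D1:**
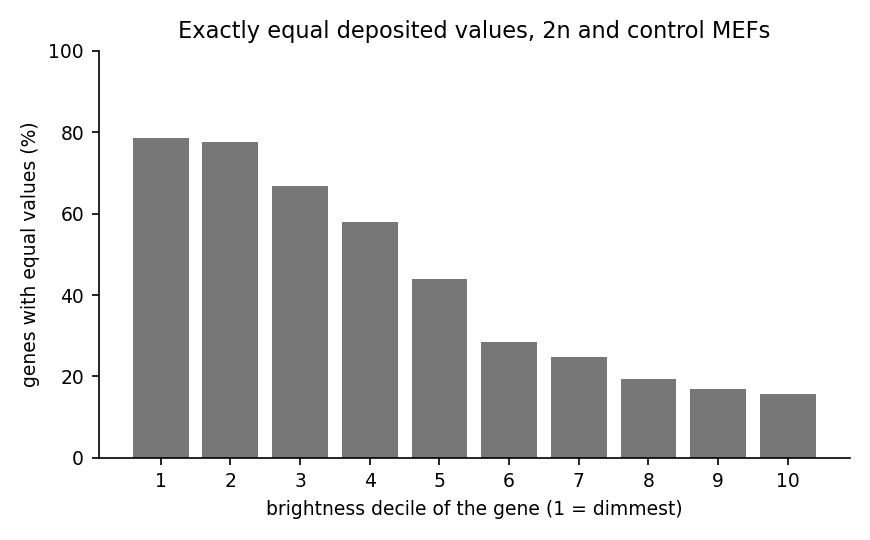
Share of genes with exactly equal deposited values on the 2n and control MEF arrays (vertical axis, percent) in each decile of brightness (horizontal axis, 1 is dimmest). The share falls from 78.5% in decile 1 to 15.8% in decile 10.

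The arrays were much alike. The log2 differences, 2n minus control, had a median of 0.02 and an SD of 0.35 over the 8044 genes, and the 5th and 95th percentiles were -0.40 and 0.57. At least 2-fold higher on the 2n array were 150 genes (1.86%) and at least 2-fold lower 44 genes (0.547%), together 2.41%. By any amount 56.4% were higher and 43.6% lower. At least 4-fold higher were 23 genes and 4-fold lower 2. Of the 150 higher genes, 81 lay under the floor on the control array, where an unknown part of the value is background. Of the 44 lower genes, 11 lay under the floor on the 2n array. A gene in the text has both values past the floor unless the text says otherwise.

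**Figure D2:**
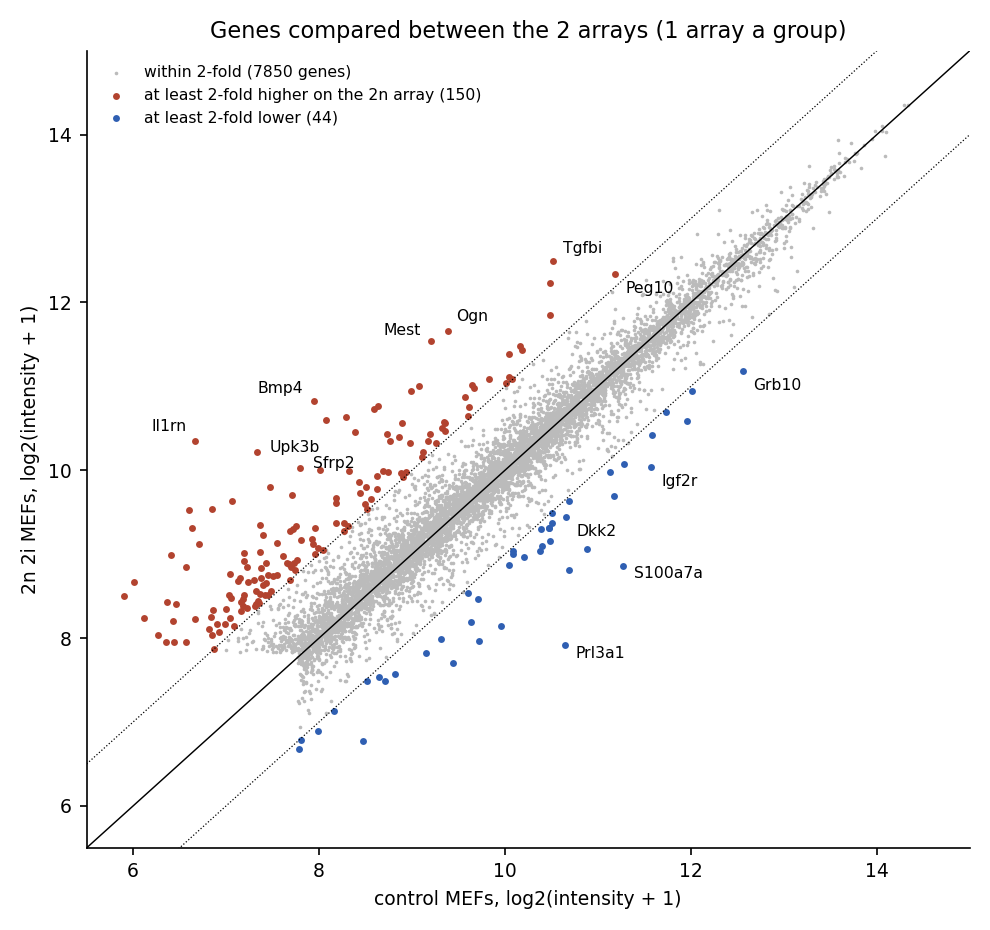
Each point is 1 of 8044 genes compared, with its log2(intensity + 1) on the control MEF array (horizontal) and the 2n 2i MEF array (vertical). The solid line marks equality and the dotted lines 2-fold, with 150 genes above the upper and 44 below the lower line.

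Imprinted genes stood on both sides of the comparison. In the list of paternally expressed genes with egg-derived methylation, 19 were measured and 14 compared. The 19 include Zim1, a maternally expressed gene that was not compared. All 14 were higher on the 2n array, where 56.4% of all genes were, and 4 of them were at least 2-fold higher, against 1.86% of all genes. Their median difference was 0.41, against 0.02 for all genes. All 14 were also higher after quantile normalization of the arrays and after centring, but these are weak checks. Centring, a shift of 0.02, could not change the sign of any of the 14. Before normalization the sorted values of the 2 arrays already lay within 0.08 of each other on the log2 scale. With no floor, which adds dim genes, Zim1 among them, the median was 0.23. Of the maternally expressed genes at such regions, 25 were measured and 15 compared. Of these, 11 were lower and 4 higher on the 2n array, where 43.6% of all genes were lower, and 2 were at least 2-fold lower, against 0.547% of all genes. The median was -0.09. Part of this pattern had been seen before the list was written, so the counts are a description. The arrays do not tell the parental copies apart. Which of the listed genes were imprinted in these cells was therefore not measured.

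Promoters of these genes are shown because the series is about methylation of CG dinucleotides, the letters that carry the mark. Of the 7 imprinted genes at least 2-fold apart, 6 had a promoter in the RefSeq table of GRCm38.p6. The 250 bases before the annotated start are given 5′ to 3′ on the gene's strand, from the C57BL/6J reference and not from the strains used here, with each CG in capitals. Where a gene had several starts, the window with the most CG was chosen. The genes shown are a pair that was higher on the 2n array and a pair that was lower.
Mest (chr6:30737800-30738049, plus strand): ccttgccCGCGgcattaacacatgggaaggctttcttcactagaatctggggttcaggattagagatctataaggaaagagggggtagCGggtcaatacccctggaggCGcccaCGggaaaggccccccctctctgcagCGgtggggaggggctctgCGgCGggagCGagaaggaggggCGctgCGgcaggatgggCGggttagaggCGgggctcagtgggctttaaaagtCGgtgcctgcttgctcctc
Plagl1 (chr10:13090582-13090831, plus strand): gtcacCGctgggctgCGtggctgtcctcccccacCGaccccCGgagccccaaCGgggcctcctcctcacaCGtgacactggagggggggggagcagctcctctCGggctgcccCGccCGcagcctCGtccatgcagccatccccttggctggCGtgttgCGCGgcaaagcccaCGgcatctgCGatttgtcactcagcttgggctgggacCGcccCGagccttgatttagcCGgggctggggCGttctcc
Igf2r (chr17:12769707-12769956, minus strand): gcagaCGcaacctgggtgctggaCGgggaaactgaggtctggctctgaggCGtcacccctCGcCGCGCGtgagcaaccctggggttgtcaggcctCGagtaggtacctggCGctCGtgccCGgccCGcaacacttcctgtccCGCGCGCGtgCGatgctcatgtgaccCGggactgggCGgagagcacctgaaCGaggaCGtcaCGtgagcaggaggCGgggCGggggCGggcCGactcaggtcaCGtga
Grb10 (chr11:12037421-12037670, minus strand): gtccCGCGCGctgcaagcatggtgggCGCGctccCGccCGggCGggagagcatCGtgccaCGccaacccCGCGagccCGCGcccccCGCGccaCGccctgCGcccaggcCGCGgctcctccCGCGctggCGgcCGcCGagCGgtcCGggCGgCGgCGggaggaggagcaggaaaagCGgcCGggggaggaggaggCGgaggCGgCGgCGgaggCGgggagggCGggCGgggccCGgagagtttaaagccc
The windows hold 14 CG (Mest), 19 (Plagl1), 27 (Igf2r) and 40 (Grb10), against a median of 6 over 32851 RefSeq windows of this length. At least as many CG stood in 29.4%, 19.7%, 8.56% and 1.31% of all windows. The letters TGCCGC, read on both strands, are those bound by Zfp57, a protein that keeps imprints methylated in the early embryo; they contain a CG. They occurred 2 times in the Mest window, 1 time in the Plagl1 window and in neither the Igf2r nor the Grb10 window, while 8.68% of all windows held at least 1. The windows chosen for the other genes went the other way: that of Zdbf2, which was higher on the 2n array, held 26 CG and 0 such matches (3 in its other window), and that of Meg3, which was lower, 10 CG and 1 match. These matches describe the reference letters. The windows were chosen by annotated start and CG count, not as the regions that carry the inherited methylation. A window without a match therefore does not show that a gene's control region lacks one. Methylation was not measured on these arrays.

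Mest, which encodes a hydrolase of the growing embryo, had an intensity of 2978 in the 2n and 588.8 in the control MEFs, a 5.05-fold difference (log2 2.34). The other arrays gave 5875 (4n 2i MEFs), 1880.3 (2i ESCs) and 1925 (S ESCs), so the control MEF array was the lowest of the 5 for this gene. Plagl1, a zinc finger transcription factor, was at 2666 against 1058 (log2 1.33), with 5897 on the 4n array, 3062 on the 2i ESC and 388.9 on the S ESC array. Peg10, derived from a retrotransposon, was at 5171 against 2319.5 (log2 1.16) and at 3368, 6518 and 6515 on the 4n, 2i ESC and S ESC arrays. Zdbf2, a zinc finger gene, was at 805.8 against 376.2 (log2 1.10), and at 728.4, 1476 and 2416 on those arrays. For each of these 4 genes the control MEF value was below the values of the other MEF arrays.

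The other 10 paternally expressed genes were within 2-fold. Sgce, which shares a promoter region with Peg10, had a log2 difference of 0.71 (2933 against 1793). Peg3, a zinc finger gene, had 0.50 (3169 against 2243), and Nnat, a small membrane protein gene, 0.48. Nap1l5 was at 0.33 and Airn, the transcript that runs antisense to Igf2r, at 0.23. Ndn (0.17), Impact (0.17), Inpp5f (0.16), Mcts2 (0.07) and Peg12 (0.07) were smaller. Like Nap1l5 and Airn, they differed by less than the SD of all genes, 0.35. Airn lies in the same imprinted domain as Igf2r. The 5 measured members of the list that were not compared were Zim1, Cdh15 and Mkrn3, which lay under the floor on both arrays, and Usp29 and Magel2, which were under the floor and equal. Of these, Zim1 is expressed from the maternal copy, against the name of the list.

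Igf2r, the receptor that takes up the growth factor Igf2 for degradation, was at 1048 in the 2n and 3048 in the control MEFs, 2.91-fold lower (log2 -1.54). It was at 126.3 on the 4n array, 1891 on the 2i ESC and 1259 on the S ESC array, so the control value was the highest of the 5. Grb10, an adaptor that restrains signalling by the insulin and Igf1 receptors, was at 2326 against 6018, 2.59-fold lower (log2 -1.37), and at 162.5, 1131 and 3129 on the 4n, 2i ESC and S ESC arrays. Both genes were lowest on the 4n array, where they lay under the floor of 232.6, and the 2n array stood between it and the control. The other maternally expressed genes were close to the control. H13, a signal peptide peptidase, had a log2 difference of -0.24 (5615 against 6618), and Slc22a18, a transporter gene that was under the floor on the 2n array, -0.38. Cdkn1c, a cell cycle inhibitor, had -0.18 and was under the floor on the 2n array too. Tssc4 (-0.16), Cd81 (-0.14), Osbpl5 (-0.09) and Nap1l4 (-0.03) of the same cluster, and Klf14 (-0.05) and Chrac1 (-0.05), were lower by small amounts. Ago2 (0.18), Pon2 (0.07), Pon3 (0.06) and Copg2 (0.02, lower after quantile normalization or centring) were higher by small amounts, and Trappc9 was equal. The other 9 measured members, Slc22a2, Phlda2, Kcnq1, Ascl2, Kcnk9, Commd1, Ppp1r9a, Calcr and Asb4, lay under the floor on both arrays.

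At regions methylated in the sperm, 8 genes were measured, 5 lay under the floor (Ins2, Rian, Rtl1, Dio3 and Rasgrf1), 3 were compared and all 3 were lower on the 2n array. The noncoding RNA gene Meg3 was at 1661 against 3412 (log2 -1.04), at 7831 on the 4n array and at 2829 and 1152 on the 2i and S ESC arrays. Dlk1, a paternally expressed membrane ligand of the same cluster, was at 2267 against 2270.2, nearly identical. Igf2 was at 5699.5 against 6870.4 (log2 -0.27), while the 4n array gave 360.5. For Igf2 the 2n and control values lay close together and the 4n value far below both.

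**Figure D3:**
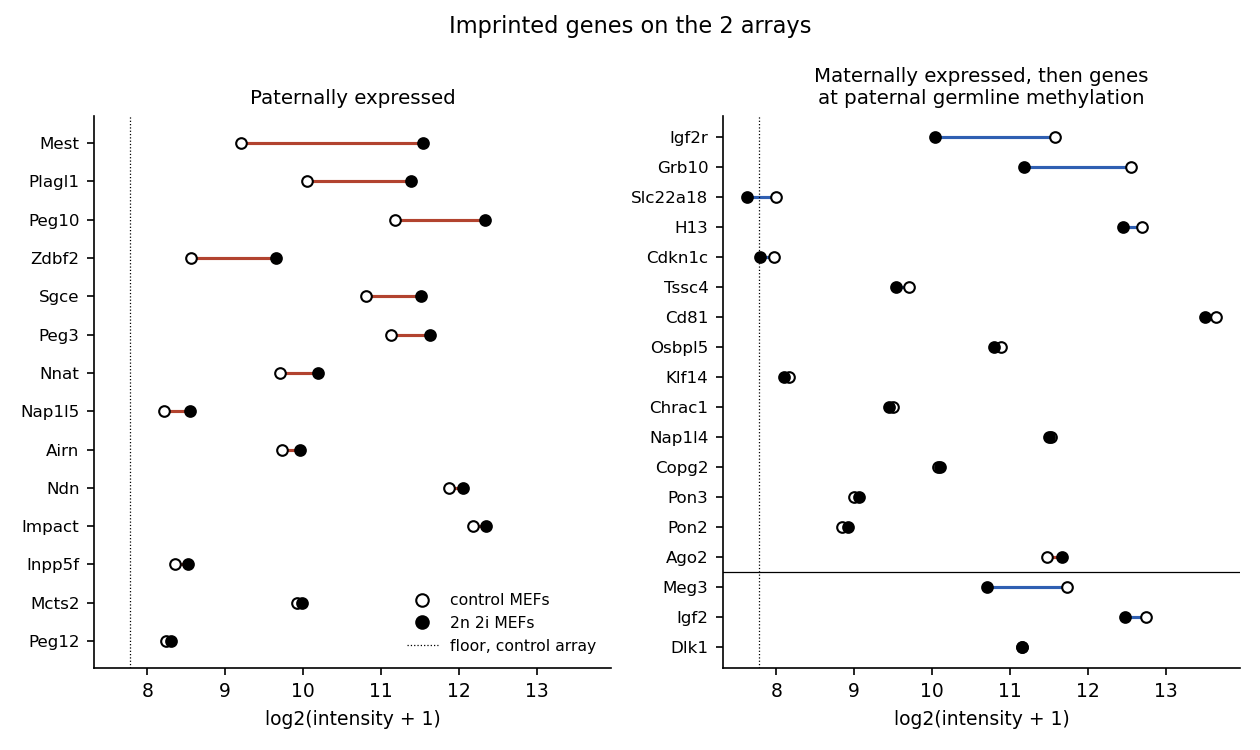
Imprinted genes compared, with log2(intensity + 1) on the control array (open circles) and the 2n array (filled circles); a red bar marks a higher and a blue bar a lower 2n value, and the dotted line is the floor of the control array. All 14 paternally expressed genes (left) were higher on the 2n array, with Mest 2.34 apart on the log2 scale; Igf2r, Grb10 and Meg3 (right) were at least 2-fold lower.

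The insulin-like growth factor axis, which Igf2r and Grb10 belong to, was mixed. Of 22 measured members 17 were compared, with 11 higher and 6 lower on the 2n array, where 56.4% of all genes were higher. The median was 0.17. At least 2-fold higher were Igfbp4 (873.7 against 394.1, log2 1.15), a secreted protein that binds the factors, and Pappa (2205 against 1053, 1.07), the protease that cleaves Igfbp4. At least 2-fold lower were only Igf2r and Grb10 among the 17. The 2 higher and 2 lower genes stand beside 1.86% and 0.547% of all genes. The ligand Igf1 had a log2 difference of 0.31 and its receptor Igf1r -0.25. Of the other binding proteins, Igfbp3 had 0.74 (3156 against 1888), Igfbp2 -0.67, Igfbp5 -0.47 and Igfbp7 0.12. The insulin receptor gene Insr, Irs1 and Igfbp6 had equal values.

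Genes of the enzymes that write, keep and remove DNA methylation were within 2-fold throughout. Of 16 compared, 12 were higher and 4 lower, where 56.4% of all genes were higher, and the median was 0.26. After quantile normalization 10 were higher and 6 lower. The largest excess was in Apobec1 (0.96), a cytidine deaminase, then the stress gene Gadd45a (0.79) and Tet1 (0.73, 622.4 against 375.0), which oxidises methylcytosine. The maintenance methyltransferase Dnmt1 was at 0.13 and its partner Uhrf1 at 0.47, the de novo enzyme Dnmt3a at 0.55. Zfp57 was the lowest, at 1595 against 2379.6 (-0.58). The gene Trim28, whose product is recruited by Zfp57, had 0.33.

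Mesothelial genes had the highest median of the lists with at least 8 genes compared. These lists were chosen with earlier results of these data known, so the rank is a description. The mesothelium is the flat cell layer that lines the body cavities, and its cells can contribute fibroblasts. Of 27 measured genes 20 were compared, 15 of them higher and 5 lower on the 2n array, where 56.4% of all genes were higher. At least 2-fold higher were 7 and at least 2-fold lower 1, against 1.86% and 0.547% of all genes, and 5 of the 7 reached the floor on the 2n array alone. The median was 0.63. The uroplakin gene Upk3b was at 1195 on the 2n array, 160.0 on the control and 2387 on the 4n array (log2 2.89 for 2n minus control). Lrrn4 was at 740.4, 114.2 and 1264 on these arrays (2.69), and Upk1b at 1739, 396.7 and 2672 (2.13). The control was the lowest MEF array for each of these genes, and for Upk3b and Lrrn4 it was under the floor.

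Aldh1a2, the enzyme that makes retinoic acid in the embryo, was at 339.5 against 86.8 (1.96). The transcription factor Wt1 was at 404.2 against 149.7 (1.43) and mesothelin, Msln, at 475.6 against 200.9 (1.24), all 3 with control values under the floor. Bnc2, a zinc finger gene, was at 1523 against 647.8 (1.23). The related gene Bnc1 went the other way, at 510.5 against 1083 (-1.08), and so did Lrrn4cl, a gene named for its likeness to Lrrn4 and outside the list (794.4 against 1648, -1.05). Of the keratins of mesothelium and simple epithelium, Krt7 had 0.83 (control under the floor), Krt8 0.43, Krt18 0.08 and Krt19 -0.08. Calb2 and Cldn15 were equal and under the floor on both arrays, and Muc16 was under the floor at 46.2 against 42.1. The list was not uniform, with Upk3b at one end and Bnc1 at the other.

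Marker lists of cell types were read for whether the labelled cells and others were present. Fibroblast markers were at the floor or above for 21 of 21 measured genes in the 2n MEFs and 20 in the control MEFs, with summed intensities of 149743 and 140914, and the labelled cell type is seen on both arrays. The gene under the floor on the control array was Fap, a protease of activated fibroblasts (247.2 against 80.9, log2 1.60). The 11 mesothelial markers summed to 6102 on the 2n and 3024 on the control array, with 7 and 3 at the floor or above. Of 15 endothelial markers 4 reached the floor on each array, and the sums were 4661 and 6542. Within them Emcn was higher (362.1 against 58.9, 2.60, control under the floor) and the receptor Flt1 lower (663.6 against 1452, -1.13), with Eng at -0.72 and Kdr at -0.52 (2n under the floor), while defining genes such as Pecam1 and Cdh5 were under the floor on both. Of 16 macrophage markers 2 reached the floor on each array, Lyz2 (-0.68) and Cd68 (-0.36), with sums of 2248 and 2855. On the 4n array 13 of the 16 did, with a sum of 27449, which stands beside every 4n value given here. Of 17 pluripotency markers 2 reached the floor on each of the 2n and control arrays, Klf2 and Tet1, and both are expressed beyond stem cells. In bulk RNA a different number of cells of a type and a different amount of RNA per cell cannot be told apart, and the part of other cell types in any difference was not tested.

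Of 12 smooth muscle and pericyte markers 8 reached the floor on each array. Epithelial markers summed to 2765 and 2532 intensity units on the 2n and control arrays, with 4 and 3 of 14 at the floor or above. Schwann cell and neural crest markers summed to 11307 and 11409, with 4 and 5 of 12. Trophoblast markers summed to 769.6 and 901.6, with 0 and 1 of 9 at the floor or above, so these sums do not show such cells. Cartilage and bone markers summed to 3747 and 3154 (4 and 3 of 13) and adipocyte markers to 3268 and 3701 (4 and 2 of 9). Skeletal muscle markers, Des among them, summed to 3681 and 3029.6 (3 and 2 of 15). Within these lists single genes stood apart. Des, the intermediate filament of muscle, was at 737.9 against 96.3, 7.59-fold higher (control under the floor), while the 18 other contractile genes compared were all within 2-fold. Of all genes 1.86% were at least 2-fold higher. Neural markers summed to 11282 and 10741, with 7 and 6 of 13 at the floor or above. Among them the intermediate filament genes Nes (1376 against 424.1, 1.70) and Nefm (301.1 against 68.5, 2.12, control under the floor) were higher, and Gap43 had -0.89.

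The genes of Wnt signalling that were at least 2-fold apart all encode secreted proteins that tune it. Of 41 measured 29 were compared, 18 higher and 11 lower on the 2n array, where 56.4% of all genes were higher. At least 2-fold higher were 5 and at least 2-fold lower 1, against 1.86% and 0.547% of all genes. The median was 0.22. Secreted frizzled-related proteins bind Wnts away from their receptors, and 3 of them were higher. Sfrp2 was at 1039 against 221.6 (log2 2.22) and at 4539 on the 4n array, Sfrp4 at 343.6 against 81.6 (2.06, control under the floor), and Sfrp1 at 1608 against 777.0 (1.05). The related Frzb was at -0.43. R-spondins, which potentiate Wnt signals, were higher too: Rspo2 at 297.9 against 100.4 (1.56) and Rspo3 at 411.7 against 205.1, both with control values under the floor, and Rspo1 at 0.90.

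Among Wnt antagonists Dkk2 was lower (692.2 against 1611, -1.22) and Dkk3 had 0.88. The ligands Wnt4 (466.9 against 902.6, -0.95), Wnt2 (-0.66) and Wnt5a (-0.27) were lower by less than 2-fold. Of the receptors, Fzd1 had 0.63, Fzd4 0.60 (control under the floor), Lgr4 0.75 and Lgr5, an R-spondin receptor like Lgr4, -0.72. The feedback target Nkd1 had 0.08 and Apcdd1 -0.33, and Lef1 was equal.

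**Figure D4:**
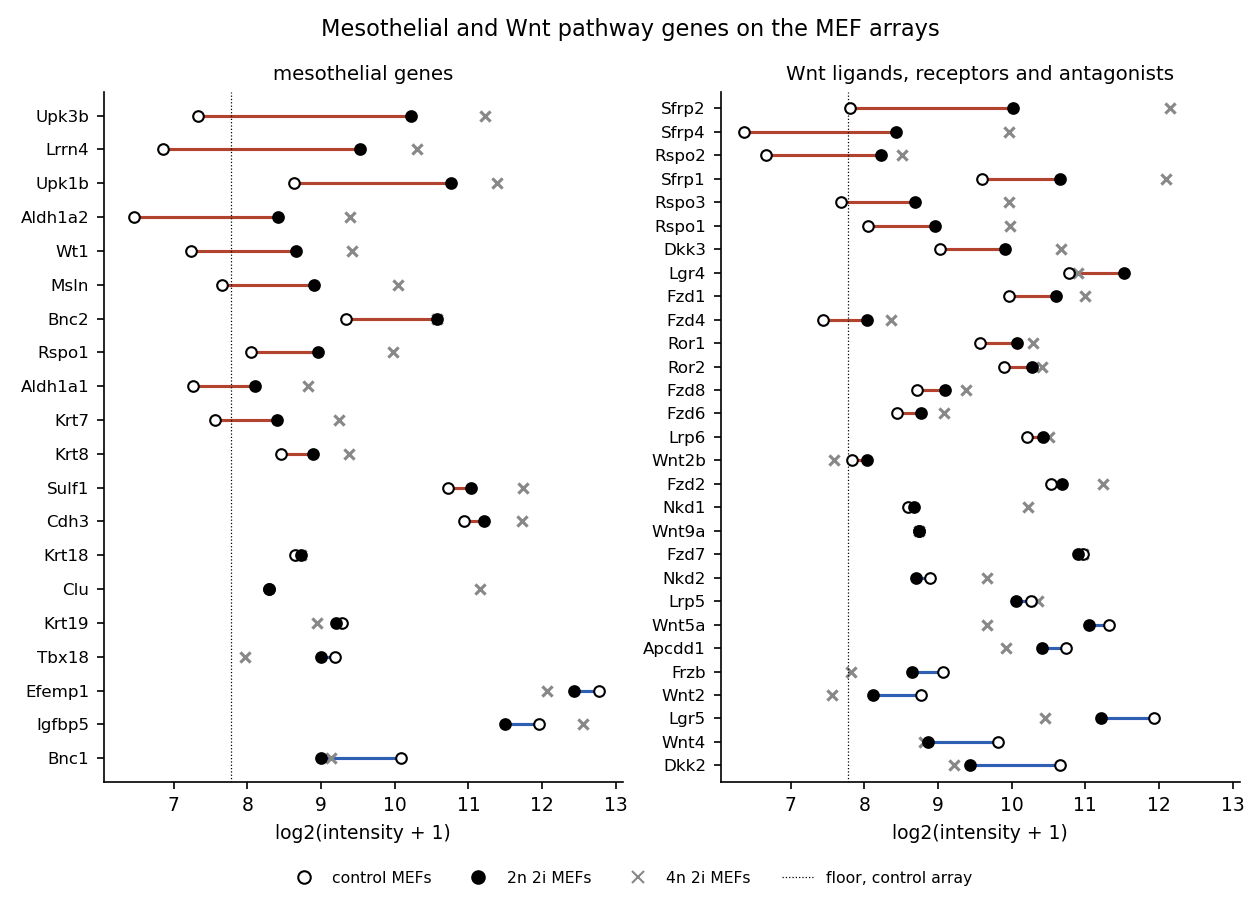
Mesothelial genes (left, 20 compared) and genes of Wnt signalling (right, 29 compared) with log2(intensity + 1) on the control (open circles), 2n (filled circles) and 4n (crosses) MEF arrays; bars join control and 2n, red where 2n is higher and blue where it is lower. Upk3b, Lrrn4 and Upk1b lead the left panel and Sfrp2 and Sfrp4 the right, with Bnc1 and Dkk2 at the bottom.

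In the BMP and TGF-beta family 3 ligands and 1 antagonist were at least 2-fold higher, against 1.86% of all genes. Of 29 genes compared 15 were higher and 14 lower, where 56.4% of all genes were higher, and the median was 0.00. Bmp4, a morphogen of mesoderm, was at 1813 in the 2n and 245.2 in the control MEFs, 7.37-fold higher, and at 2976, 492.9 and 2101 on the 4n, 2i ESC and S ESC arrays. Bmp5 was at 507.9 against 83.8 (log2 2.58) and at 212.7 on the 4n array, so the 2n array was the highest of the 3 MEF arrays. The extracellular BMP antagonist Smoc1 was at 557.8 against 103.4 (2.42), and Tgfb2 at 1447 against 639.6 (1.18). For Bmp5 and Smoc1 the control was under the floor.

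No receptor was 2-fold apart: Bmpr1a had 0.06, Acvr1 0.14, Tgfbr2 -0.05 and Tgfbr3 -0.41, and Tgfbr1 was equal. The antagonists Nog (-0.53, 2n under the floor), Fst (-0.61) and Grem1 (-0.22) and the activin subunit gene Inhba (-0.29) were lower by less than 2-fold. Of 17 targets and SMADs compared 2 were at least 2-fold higher, against 1.86% of all genes. They were the matrix protein gene Tgfbi (5746 against 1463, 1.97) and Gata6 (1281 against 609.9, 1.07). The Id genes, direct targets of BMP signalling, were lower or equal: Id1 had -0.58, Id2 -0.14 and Id4 -0.65, and Id3 was equal.

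Of 52 transcription factors of mesenchymal patterning compared, 30 were higher and 22 lower, where 56.4% of all genes were higher, and the median was 0.21. At least 2-fold higher were 11 and at least 2-fold lower 1, against 1.86% and 0.547% of all genes. Sim2 was at 793.4 against 132.4 (log2 2.57), and Alx1, a factor of craniofacial mesenchyme, at 522.2 against 164.3 (1.66). The forkhead genes Foxc1 (1.51), Foxd1 (1.19) and Foxc2 (1.01, 966.2 against 477.9) were higher, and so were the orphan receptor gene Nr2f1 (1.29), the hindlimb factor Tbx4 (1.20), Zic2 (1.19), Six4 (1.17) and Dlx5 (1.14). Of the 11, 9 reached the floor on the 2n array alone, all but Gata6 and Foxc2. Eomes was lower (118.1 against 252.4, -1.09), with the 2n value under the floor.

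Other factors of limb and body wall mesenchyme were within 2-fold. Prrx1 had -0.09, Twist1 -0.14, Twist2 -0.63, Tbx15 -0.21 and Tbx5, the forelimb counterpart of Tbx4, -0.33. Of 16 Hox genes compared 8 were higher and 8 lower, and the median was -0.02. Hoxa5 alone was at least 2-fold higher (469.2 against 204.0, 1.20, control under the floor), against 1.86% of all genes. It was followed by Hoxa2 (0.98, control under the floor) and Hoxa10 (0.51). The lowest were Hoxc9 (827.5 against 1447, -0.81), Hoxc8 (4521 against 7665, -0.76), Hoxb9 (-0.42) and Hoxc6 (-0.35). The compared genes of the Hoxa cluster, Hoxa2, Hoxa4, Hoxa5, Hoxa6, Hoxa7 and Hoxa10, were each higher on the 2n array and those of the Hoxc cluster each lower, a grouping seen after the values were known. Hoxa7, at 0.02, was lower after quantile normalization.

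Of the matrix lists 3 collagen genes and 4 other genes were at least 2-fold higher and 1 gene was at least 2-fold lower. Among all genes the shares were 1.86% and 0.547%. Of 26 collagen genes compared 13 were higher and 13 lower, and the median was 0.02. Col14a1 (618.4 against 204.6, log2 1.59), Col10a1 (1.29, 353.9 against 144.5) and Col18a1 (1.08) were at least 2-fold higher, and the first 2 had control values under the floor. The main fibrillar chains Col1a1 (0.36, 12632 against 9870.1), Col1a2 (0.36) and Col3a1 (0.88) were within 2-fold. Of 39 other matrix genes, 26 were higher and 13 lower, where 56.4% of all genes were higher, and the median was 0.13. The small leucine-rich proteoglycan gene Ogn was at 3237 against 666.8, 4.85-fold higher, and its relative Fmod at 1013 against 318.2 (1.67). Other members of that family, Lum (0.77), Aspn (0.28), Bgn (0.01, lower after quantile normalization or centring) and Dcn (-0.30), were within 2-fold.

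Abi3bp (1.58, control under the floor) and the matricellular Ccn3 (3686 against 1427, 1.37) were also higher, and the laminin gene Lama2 was lower (721.2 against 1452, -1.01). Of 33 proteases and inhibitors compared 20 were higher and 13 lower, where 56.4% of all genes were higher. After centring the split was 17 and 16. At least 2-fold higher were the collagenase Mmp13 (1.47, control under the floor) and Fap, against 1.86% of all genes. The metalloprotease Adam33 was at least 2-fold lower (249.7 against 843.8, -1.75), against 0.547% of all genes. Mmp2 had 0.75 and Timp3 -0.41. Of 27 integrins, cadherins and adhesion molecules, 12 were higher and 15 lower, where 43.6% of all genes were lower. The integrin Itga4 (291.6 against 792.4, -1.44) and Cdh6 (630.5 against 1343, -1.09) were at least 2-fold lower, against 0.547% of all genes. Itga4's ligand Vcam1 had -0.60. Itgb8 was at least 2-fold higher (1.19, control under the floor), against 1.86% of all genes.

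The largest difference of the comparison was in a cytokine gene. Il1rn, the antagonist of the interleukin 1 receptor, was at 1303 in the 2n and 100.7, under the floor, in the control MEFs, 12.8-fold higher. It was at 1664 on the 4n array and at 73.8 and 69.1 on the ESC arrays, so both 2i MEF arrays were high and the other 3 low. The receptor accessory gene Il1rap had -0.41, Il1rl2 -0.22, and Lifr, the receptor of leukaemia inhibitory factor, was higher (1.15, control under the floor). Of 7 chemokine genes compared, Cx3cl1 (810.6 against 289.9, 1.48) and Cxcl12 (1509 against 652.1, 1.21) were at least 2-fold higher, against 1.86% of all genes. The inflammatory chemokine genes Ccl2 (3732 against 7317, -0.97), Ccl7 (-0.77) and Cxcl1 (-0.62) were lower by less than 2-fold.

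Interferon response genes were lower nearly throughout. Of 15 compared 14 were lower on the 2n array, where 43.6% of all genes were, with a median of -0.19. At least 2-fold lower were 2 of the 15, against 0.547% of all genes. They were Ifit1 (101.1 against 219.5, log2 -1.11) and Xaf1 (178.2 against 364.5, -1.03), with 2n values under the floor. Usp18 had -0.77 and the regulator Irf7 -0.54, also with 2n values under the floor. B2m was at -0.04 and Stat2 at -0.07, and Irf1 was the higher gene (0.36).

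Genes of DNA replication and mitosis were higher as a list by small amounts. Of 41 compared 39 were higher and 2 lower, where 56.4% of all genes were higher, none by 2-fold, with a median of 0.40. The mitotic genes Kif11 (1576 against 1058, log2 0.57), Bub1b (0.57) and Aurka (0.57) led, Mki67 was at 0.52, and the replication genes Mcm6 (0.43), Mcm4 (0.39), Mcm5 (0.31) and Mcm2 (0.16) were smaller. The ribonucleotide reductase genes Rrm2 (-0.22) and Rrm1 (-0.06) were the lower ones. Top2a had 0.47, and its probe sets disagreed in sign. Of 19 p53 response genes and cell cycle inhibitors 13 were higher, where 56.4% of all genes were, with a median of 0.07. After centring 12 were higher. Btg2 (2104 against 1035, 1.02), an antiproliferative gene, was alone at least 2-fold higher among the 19, against 1.86% of all genes. Perp had -0.86, Mdm2 0.05 and Cdkn1b 0.45, and Cdkn2a was equal.

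Of 25 ERK response genes compared 11 were higher and 14 lower, where 43.6% of all genes were lower, and the median was -0.07. The phosphatase gene Dusp4 alone was at least 2-fold lower (1365 against 3064, log2 -1.17), against 0.547% of all genes. The feedback inhibitors Spry1 (-0.60), Spry4 (-0.40) and Spry2 (-0.30) were lower by less than 2-fold. The immediate early genes Egr1 (3050.3 against 1635, 0.90) and Egr2 (0.90) stood at the other end. Of 12 FGF and EGF family genes 8 were lower, where 43.6% of all genes were. Among the 8 were the limb and lung growth factor gene Fgf10 (523.6 against 1333, -1.35), Ereg (-0.77) and Fgf2 (-0.65). Fgf10 alone was at least 2-fold lower, against 0.547% of all genes. The receptor gene Egfr had 0.53.

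In metabolism, single genes of glycolysis and hypoxia stood apart from a list near the control. Of 31 compared 23 were higher, where 56.4% of all genes were, with a median of 0.11. At least 2-fold higher were 2, against 1.86% of all genes. The lactate transporter gene Slc16a3 was at 1401 against 334.6 (log2 2.06) and the mitophagy gene Bnip3 at 1350.1 against 463.9 (1.54). Pdk1 had 0.95 (control under the floor), and the glycolysis list's Ldha (0.05), Aldoa (0.03) and Pkm (-0.17) lay close to 0. Of 23 genes of cholesterol and fatty acid synthesis 19 were higher, where 56.4% of all genes were, and none by 2-fold. Their median was 0.08, with the largest excess in the desaturase gene Scd1 (0.36). Of 24 antioxidant and detoxification genes the carbonyl reductase gene Cbr2 alone was at least 2-fold apart (633.9 against 98.6, 2.67, control under the floor). Of all genes 2.41% were at least 2-fold apart. The NRF2 targets Nqo1 (-0.13), Hmox1 (-0.28) and Gclm (-0.16) were within 2-fold. The 11 housekeeping genes compared had a median of 0.01 and none was at least 2-fold apart; they split into 7 higher and 4 lower, and into 4 and 7 after centring.

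Of 9 S100 and cornified envelope genes compared 7 were lower, where 43.6% of all genes were, with a median of -0.34, and 2 were at least 2-fold lower, against 0.547% of all genes. S100a7a was at 465.2 on the 2n, 2475 on the control and 150.5 on the 4n array (log2 -2.41), and Lce1h at 827.9, 2309 and 136.7 (-1.48). Crct1, which lies in the same epidermal gene complex and is outside the list, was at 370.6, 777.7 and 135.3 (-1.07). Prl3a1, a prolactin family gene of placenta, was at 240.6, 1599 and 61.3 (-2.73). In each of these 4 genes the control was the highest MEF array and the 4n array the lowest. Of the granzyme genes, Gzmd was higher on the 2n array (405.6 against 63.6, 2.65, control under the floor), with 76.5 on the 4n array, and no other granzyme or prolactin family gene of the 26 measured reached the floor. Gzme just missed it, at 224.9 on the 2n, 63.7 on the control and 81.5 on the 4n array (1.80). The granzyme and prolactin genes are families of close copies, which probe sets may not separate.

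The same order of the MEF arrays was seen in other lower genes. The receptor gene Gpr149 was at 448.8 on the 2n and 1647 on the control array and under the floor on the 4n array, and the peptide hormone gene Cck at 531.3, 1882 and 117.0. Cyp4a12b was at 282.8, 993.1 and 91.7; its copy Cyp4a12a, which may share signal with it and is named after its value was seen, had a log2 difference of -1.03 (2n under the floor). Syt13, a synaptotagmin gene, was at 1541, 3977 and 452.7, and the vitamin D receptor gene Vdr at 1005, 2239.9 and 247.3. The matrix gene Dpt was at 1978, 4134 and 1364. In other lower genes the 2n array was the lowest MEF array. The ectonucleotidase gene Entpd1 was at 207.6, 695.6 and 314.8, with the 2n value under the floor, and the lipase gene Mgll at 548.1, 1349 and 832.3. Ctla2a was at 184.7, 399.1 and 494.8, also with the 2n value under the floor, and may share signal with its close copy Ctla2b.

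Further genes at least 2-fold lower were the citrate transporter Slc13a5 (log2 -1.71, 2n under the floor), the complement regulator Cd55 (-1.33, 2n under the floor), the muscle ubiquitin ligase gene Fbxo32 (-1.33), the endocytic receptor Lrp2 (-1.25, 2n under the floor), Mgst3 (-1.24), the phosphatase Ptprb (-1.24), Bace2 (-1.22, 2n under the floor), Kcnab1 (-1.21), Dock9 (-1.18), the kinase Ptk2b (-1.16), Pde8b (-1.16) and Flrt3 (-1.05).

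Outside the lists, the higher genes included Rtl3, derived from a retrotransposon (1556 against 268.1, log2 2.53), the secreted Cthrc1 (1588 against 312.9, 2.34), Capn6 (2.33), the iron exporter Slc40a1 (2.28), the receptor chain Il13ra1 (1698 against 383.7, 2.14) and the aryl hydrocarbon receptor Ahr (832.9 against 207.9, 2.00). Control values were under the floor for Capn6, Slc40a1 and Ahr. The netrin receptor Unc5c (2.00), the complement pathway protease Masp1 (1964 against 508.3, 1.95), Nrep (2059 against 538.2, 1.93), Lrrc17 (4793 against 1428, 1.75) and Edil3 (1.67) had both values past the floor. The mechanosensitive channel gene Piezo2 (1.82), Islr (1.73), Trps1 (1.72), Itih2 (1.77), Slc24a3 (1.98), Adgrl4 (1.78) and Mecom (1.83) had control values under the floor. The 2 probe sets of Mecom ran from 0.10 to 1.83, so its difference rests on 1 of them.

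**Figure D5:**
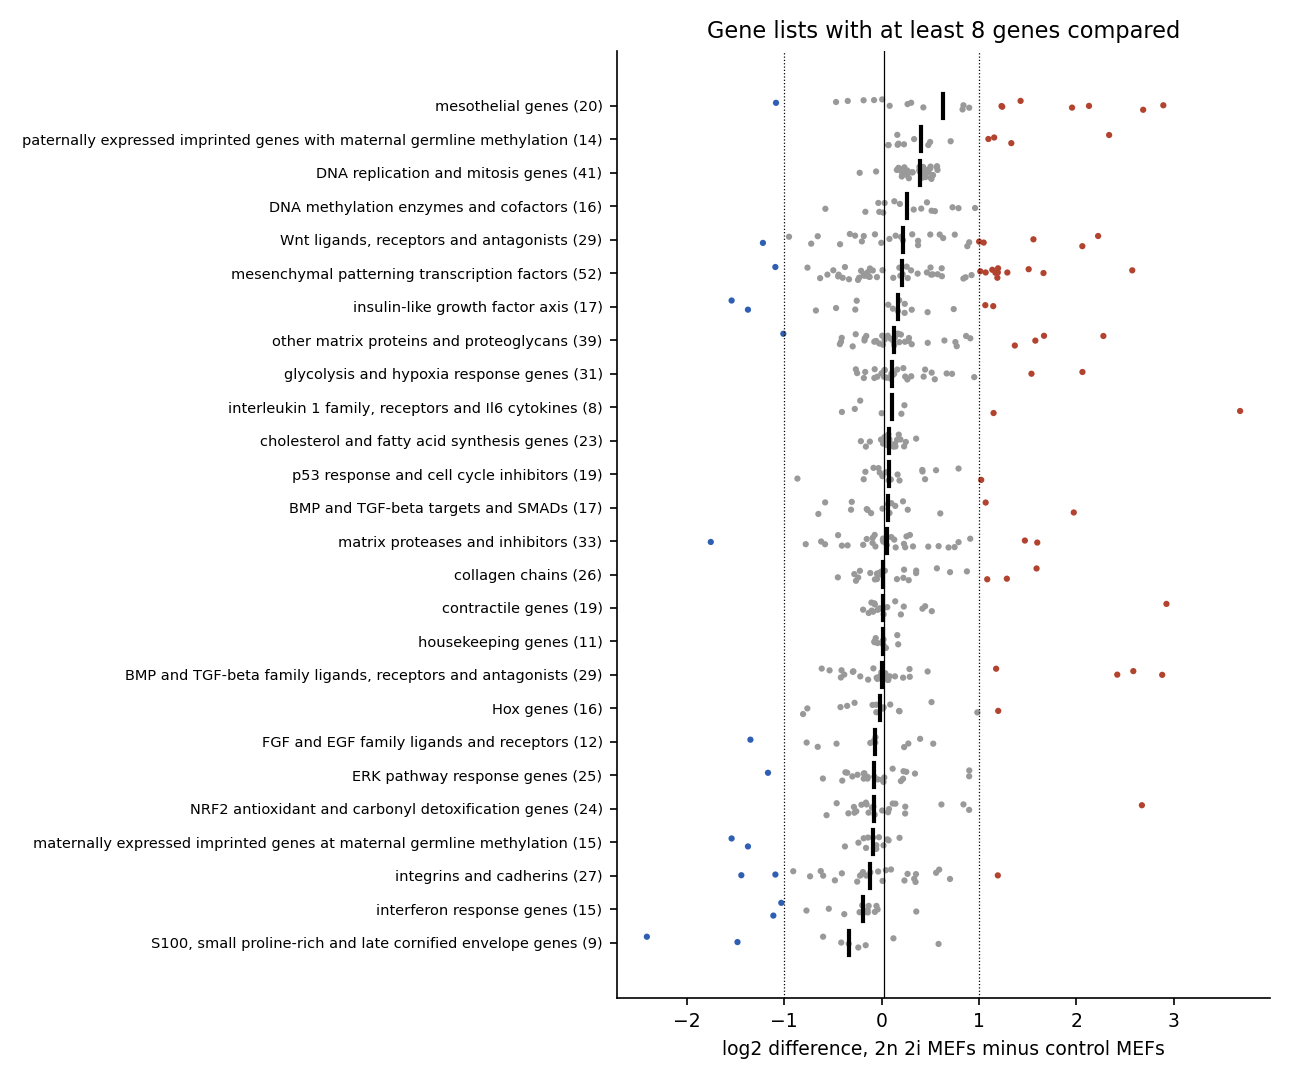
Log2 differences (2n minus control MEFs, horizontal) of the genes compared in each list with at least 8 such genes (number in brackets); each point is a gene, red or blue where at least 2-fold higher or lower, the black bar is the list's median and the solid line the median of all genes. Mesothelial genes (0.63), paternally expressed imprinted genes (0.41) and DNA replication and mitosis genes (0.40) lie highest, and S100 and cornified envelope genes (-0.34) lowest.

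Xist, whose RNA silences an X chromosome in female cells, was at 1309.9 on the 2n and 2461 on the control array (log2 -0.91), 4018 on the 4n array and under the floor on the ESC arrays. The control value lay between those of the 2i MEF arrays. Rlim, an activator of Xist, had 0.08.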

How the data were processed

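Total RNA of 5 samples was measured on a whole-transcript mouse array, 1 array a group. The authors deposited linear intensity values for 28853 probe sets. Background correction, summary and normalization are not given in the sources used here. Probe sets were named through the platform annotation: 21789 had 1 gene symbol, 1621 several and 5443 none, and 21698 of the first kind matched RefSeq of GRCm38.p6. Where a gene had several, the probe set brightest on average across all 5 arrays stood for it. Differences are log2(value + 1), 2n minus control, and the added 1 shrinks those of dim genes only slightly. The floor is the 50th percentile of gene-named probe sets. No test was possible with 1 array a group, and their number limits the precision. The 30 gene lists and 13 marker lists, and the genes named, were chosen with earlier results of these data known. Named are listed genes at least 2-fold apart, up to 8 others of each list, all measured imprinted genes, and unlisted genes among the 40 largest differences in each direction. Computations used Python 3.11.15, numpy 2.4.6 and pandas 2.3.3, and were checked on simulated data.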

Additional observations from a re-analysis of the deposited data

How the results depend on the processing

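With the floor at the 75th percentile 51 genes passed 2-fold as higher and 28 as lower, so that 64.6% of the genes apart were higher in place of 77.3%, and fewer genes were compared (4187 in place of 8044). At 3-fold in place of 2-fold, 45 were higher and 8 lower. The median of the list of paternally expressed imprinted genes was 0.23 with no floor, which brings in Zim1, in place of 0.41. Under no floor, a pseudocount of 16, quantile normalization, centring on the median, the mean of probe sets and equal values kept, the counts ran from 132 to 161 higher and from 40 to 46 lower. Of the 194 genes apart, 19 came within 2-fold after quantile normalization, 13 with the pseudocount of 16, 7 after centring and 2 (Mecom and Ak4) with the mean of probe sets. The 75th percentile floor left out 125 of 219 genes, those apart and the imprinted genes compared. None of the genes at least 2-fold apart changed direction where compared, but most settings could not reverse such a difference. Floors and equal values kept leave a difference as it is, a pseudocount keeps its sign and centring moved it by 0.02. Sorted values of the 2n and control arrays lay within 0.08 of each other on the log2 scale. After quantile normalization or centring 28 listed genes within 0.034 of 0 changed sign, Copg2 and Hoxa7 among them. No paired analysis was possible because each group has 1 array. Dim genes are limited by background, since 81 of the 150 higher genes were under the floor on the control array.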

Other observations

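Genes of the X chromosome were chosen for this count after their values were seen. Of 259 compared, 10 (3.86%) were at least 2-fold higher on the 2n array and 0 lower, with a median difference of 0.05, against 1.86% and 0.547% of all genes. Across the autosomes the share higher ran from 0.366% (chromosome 19) to 3.18% (chromosome 3), so the X lay not far above the top of that range. No test was made. Among the 10 were the tendon gene Tnmd, at 636.8 against 247.4 intensity units, Itm2a, at 1873 against 760.6, and Gpc3, a cell surface proteoglycan gene, at 887.9 against 361.8. Slc38a4, an amino acid transporter gene imprinted in mouse and outside the lists, was also noticed after its value was seen, at 2769 on the 2n, 1159 on the control and 2556 on the 4n array.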
